A study of Mus musculus with 3 samples.

Results

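The nuclear-encoded respiratory chain genes are the genes of the nucleus whose proteins build the 5 complexes of mitochondrial oxidative phosphorylation. They were taken by symbol, as every listed gene that starts with Nduf, Uqcr, Atp5, Cox4, Cox5, Cox6, Cox7 or Cox8, or that is Sdha, Sdhb, Sdhc or Sdhd. This gave 94 of the 32285 genes in the count tables. Of these, 37 are complex I subunits, 8 are complex I assembly factors, 4 belong to complex II, 8 to complex III, 20 to complex IV and 17 to ATP synthase. Ndufa4 and Ndufa4l2 were counted with complex IV, where the NDUFA4 protein is found. The level of each gene was measured by droplet single-cell RNA-seq in bone-lining cells (BLCs), which line the inner surface of bone. They came from young adult wild-type (WT) mice, without any other treatment or allele given in the labels. The BLCs were released from femora, tibias and iliac bones with collagenase and sorted as CD45-, Ter119-, CD31-, Sca-1- and Alcam+. The 3 libraries, replicates 1, 2 and 3, form 1 group, so every comparison is between cell classes of the same libraries.

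Oxidative phosphorylation passes electrons from NADH through complex I, or from succinate through complex II, to complex III and on to oxygen at complex IV, and ATP synthase uses the proton gradient that this builds. Several complex IV subunits exist in alternative forms. Cox4i1 is the general form of subunit 4 and Cox4i2 the form known from lung and from cells at low oxygen. Ndufa4l2 is a relative of Ndufa4 known as a target of hypoxia-inducible factor (HIF). Cartilage has no blood vessels, and its chondrocytes are known to rely on glycolysis.

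The promoters of many of these genes are known to carry a site for nuclear respiratory factor 1 (NRF1). RefSeq windows (GRCm38.p6) of the 250 bases before the start site were given for 75 of the 94 genes. The NRF1 core GCGCATGC, read on both strands, was in 9 of these 75 genes (12%), against 2.56% of all 27025 genes with a window. The ETS core CCGGAAG, the letters of the factor GABP, was in 14 of 75 (18.7%), against 7.83% of all genes. The HIF core ACGTG was in 14 of 75 (18.7%), against 18.5% of all genes. A match is a description of letters and not of binding. The windows of the 3 genes with an NRF1 core that had the highest levels here are shown as examples of that motif, with the core of either strand in capitals. Atp5g2 encodes the membrane ring of ATP synthase, Atp5l a subunit of its stalk region and Cox6a1 a subunit of complex IV. The windows are chr15:102671048-102671297 (minus strand), chr9:44920743-44920992 (minus strand) and chr5:115348959-115349208 (minus strand).
Atp5g2: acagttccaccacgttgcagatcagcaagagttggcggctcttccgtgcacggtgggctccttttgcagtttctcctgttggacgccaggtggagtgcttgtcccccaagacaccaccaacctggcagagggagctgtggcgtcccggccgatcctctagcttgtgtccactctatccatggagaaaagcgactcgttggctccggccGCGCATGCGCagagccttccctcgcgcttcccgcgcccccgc
Atp5l: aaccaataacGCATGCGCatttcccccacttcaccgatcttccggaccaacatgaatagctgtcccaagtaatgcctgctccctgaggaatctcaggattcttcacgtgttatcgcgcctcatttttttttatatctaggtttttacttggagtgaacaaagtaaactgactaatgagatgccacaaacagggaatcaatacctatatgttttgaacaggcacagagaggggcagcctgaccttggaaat
Cox6a1: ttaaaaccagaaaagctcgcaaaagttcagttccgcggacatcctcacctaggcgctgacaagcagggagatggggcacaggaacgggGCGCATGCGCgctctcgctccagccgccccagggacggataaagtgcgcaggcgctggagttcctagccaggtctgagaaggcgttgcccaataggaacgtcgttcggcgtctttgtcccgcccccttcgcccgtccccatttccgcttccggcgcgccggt
In Atp5g2 and Cox6a1 the core of 1 strand overlaps the core of the other, and the run of capitals holds both.

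After filtering, 2476, 6363 and 9393 cells remained in replicates 1, 2 and 3, with a median of 5618, 9721 and 5815 unique molecular identifiers (UMIs). A cell was put into the 1 of 11 marker gates whose list of 8 genes it matched best, which placed 1814, 5966 and 8732 cells. Most of these were chondrocyte-like (Acan, Col2a1, Sox9 and 5 others) in replicates 2 and 3, at 5564 and 8126 cells. Replicate 1 stood apart, with 471 chondrocyte-like cells beside 618 CAR-like cells, a name for Cxcl12-abundant reticular stroma. The sort marker Alcam was at 51.9, 18.3 and 19.1 UMIs per 1000000. Of the genes for markers sorted against, Pecam1 (CD31) was at 57.6, 17.5 and 24.3 and Ly6a (Sca-1) at 58.3, 8.85 and 8.05. Ptprc (CD45) was at 26.3, 5.24 and 6.94. Osteoblast-like cells numbered 33, 142 and 218, and tendon-like cells 69, 29 and 28. Leukocyte-like and erythroid-like cells were present although the sort was set to remove them. Endothelial-like cells numbered under 20 in each library and gave no value. 5, 9 and 28 barcodes were shared between pairs of libraries.

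All 94 genes had at least 1 UMI in gated cells. Levels are given as CPM, the UMIs of a gene per 1000000 UMIs of the same cells, and since 1 transcript end is counted per molecule they need no correction for length. The mean over the 3 libraries was at least 100 CPM for 52 genes, 10 to 100 CPM for 34 and under 10 CPM for 8. The 10 most abundant genes were Cox4i1, Cox7c, Ndufa4l2, Uqcrh, Cox8a, Atp5e, Atp5b, Atp5g2, Atp5h and Cox6c, and they took 29.3% of the UMIs of all 94. 9 of these 10 were among the 10 highest in each library. Cox4i1 led with 648, 533 and 518 CPM (566 ± 71.1, mean ± SD, n = 3), and was detected in 79.8% to 85.0% of gated cells. Uqcrh, the hinge protein of complex III, was at 357, 387 and 372 CPM. Atp5b, the catalytic beta subunit of ATP synthase, was at 438, 263 and 262 CPM.

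The complex II genes were lower. Sdhb had 83.5, 43.4 and 41.4 CPM and Sdha 69.8, 46.9 and 45.8 CPM. Sdhd had 66.6, 41.1 and 36.6 CPM and Sdhc 51.6, 24.8 and 23.5 CPM. All 4 were highest in replicate 1. The genes under 10 CPM were the assembly factors Ndufaf1, Ndufaf5 and Ndufaf6 and 5 complex IV forms (Cox8c, Cox6a2, Cox7a1, Cox8b and Cox7b2), most of which are known from heart, skeletal muscle or testis. Ndufa4l2 had the widest spread of the 10 most abundant genes, with 179 CPM in replicate 1 and 423 and 534 CPM in replicates 2 and 3.

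**Figure D1:**
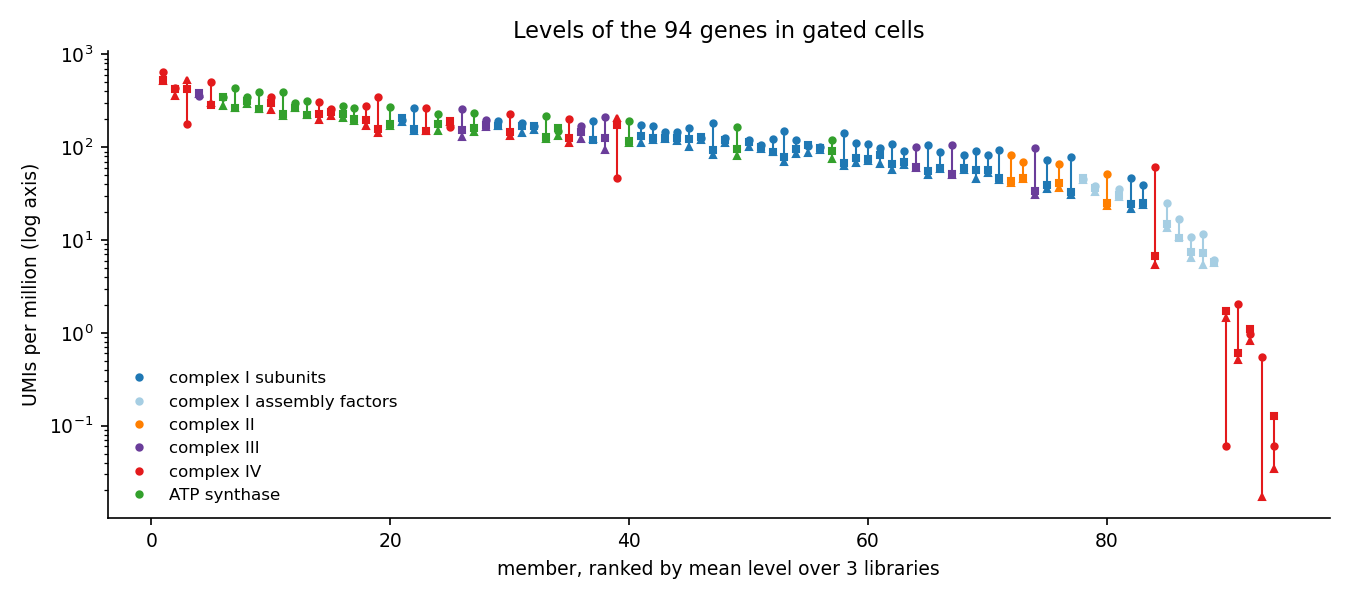
Level of each of the 94 genes in gated cells (UMIs per 1000000, log axis) by rank of the mean over 3 libraries. Circles, squares and triangles are replicates 1, 2 and 3, joined by a line and coloured by complex, and values of 0 are not drawn. 52 genes lie at 100 or more, and the lowest points are complex IV forms.

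Cox4i2 was high in chondrocyte-like cells and low in most other gates. Cox4i2 (ENSMUSG00000009876) lies at chr2:152754173-152765037 on the plus strand of GRCm38, and Cox4i1 (ENSMUSG00000031818) at chr8:120668222-120674207, also on the plus strand. In chondrocyte-like cells Cox4i2 was at 163, 183 and 222 CPM in replicates 1, 2 and 3, and Cox4i1 at 456, 510 and 494 CPM. Cox4i2 was at 5.53, 7.54 and 10.3 CPM in osteoblast-like cells and at 18.7, 24.3 and 22.4 CPM in CAR-like cells. It was at 2.35, 24.7 and 48.9 CPM in tendon-like cells and at 2.30, 1.44 and 4.27 CPM in leukocyte-like cells. No library of these 4 gates reached the lowest chondrocyte-like value.

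The share of Cox4i2 in the UMIs of both forms does not depend on how libraries are scaled. It was 26.3%, 26.4% and 31% in chondrocyte-like cells (27.9% ± 2.70), with exact binomial 95% intervals of 24.4% to 28.3%, 26.0% to 26.8% and 30.6% to 31.5%. Intervals here and below cover counting error only. In osteoblast-like cells it was 1.10%, 1.61% and 2.33%, in CAR-like cells 4.83%, 4.2% and 3.77%, and in tendon-like cells 0.472%, 2.87% and 6.06%. Leukocyte-like cells had 0.140% to 0.424% at 1913 to 2146 Cox4i1 UMIs. Cox4i1 was the more abundant form in every gate of every library. The mural-like gate (smooth muscle and pericyte markers) held enough cells in replicate 1 only and had the next share, 13.0% (9.31% to 17.6%), at 120 CPM.

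Ndufa4l2 was also highest in chondrocyte-like cells, where it was more abundant than its relative Ndufa4. Ndufa4l2 (ENSMUSG00000040280) lies at chr10:127514967-127517154 on the plus strand and overlaps Shmt2 on the other strand, and Ndufa4 (ENSMUSG00000029632) lies at chr6:11900292-11907497 on the minus strand. In chondrocyte-like cells Ndufa4l2 was at 820, 449 and 569 CPM, against 106, 211 and 176 CPM for Ndufa4. It made up 88.5%, 68.0% and 76.3% of the pair (77.6% ± 10.3). Osteoblast-like cells had 22.1, 27.7 and 85.5 CPM of Ndufa4l2, CAR-like cells 26.5, 17.0 and 28.0 CPM, and tendon-like cells 7.06, 39.6 and 130 CPM. Leukocyte-like cells had 0, 7.65 and 13.8 CPM. The chondrocyte-like values lie above those of these 4 gates in every library. In fibroblast-like cells (27 cells of replicate 1) Ndufa4l2 was at 212 CPM and 66.7% of the pair (52.1% to 79.2%). In mural-like cells (58 cells of replicate 1) it was at 196 CPM, beside 210 CPM of Ndufa4, so both Cox4i2 and Ndufa4l2 were present there.

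**Figure D2:**
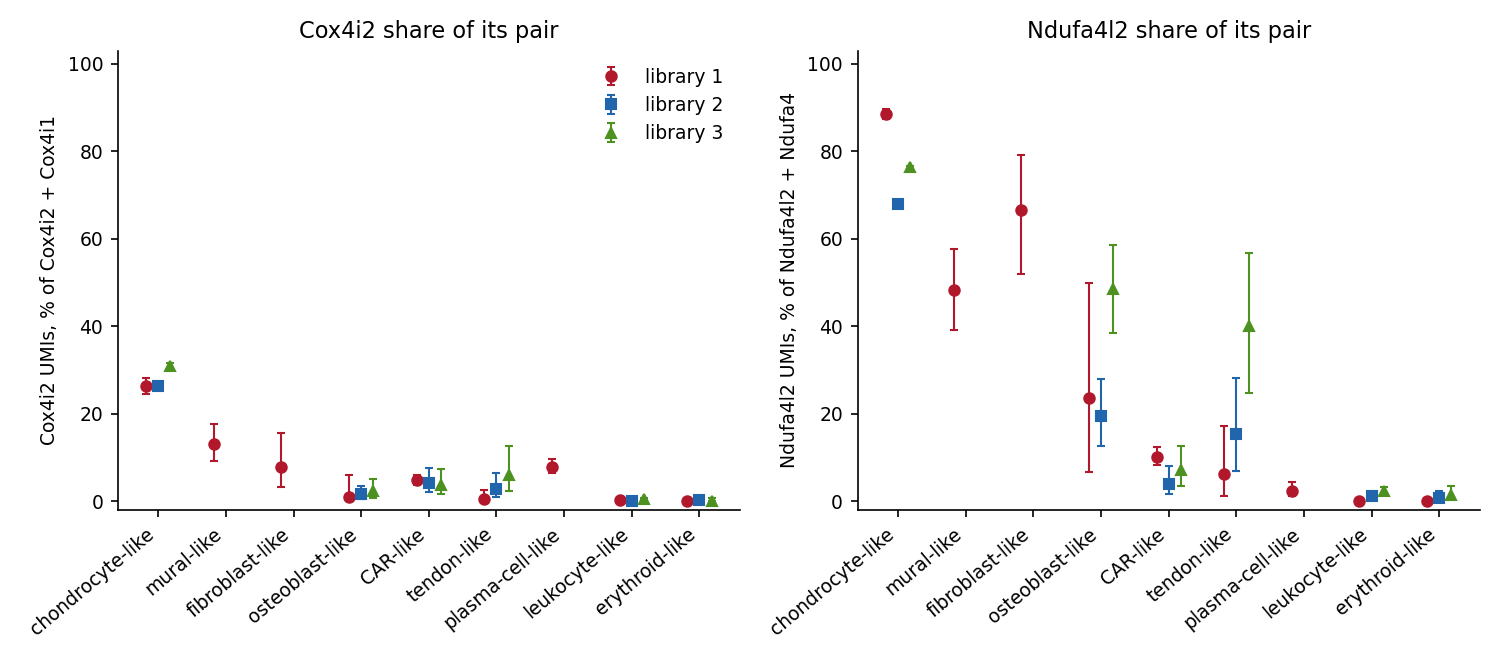
Cox4i2 as a percent of Cox4i2 plus Cox4i1 UMIs (left) and Ndufa4l2 as a percent of Ndufa4l2 plus Ndufa4 UMIs (right), by marker gate and library, with exact binomial 95% intervals. Chondrocyte-like cells have the highest share in both panels, 26.3% to 31% and 68.0% to 88.5%.

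Both genes passed the test in 3 comparisons. Differences are log2 fold changes from edgeR's quasi-likelihood test on UMIs summed per gate and library, with Benjamini-Hochberg adjustment over 12158 genes. Cox4i2 was lower than in chondrocyte-like cells by -4.70 ± 0.42 (SE, adjusted p = 1.44e-08) in osteoblast-like cells, by -3.57 ± 0.33 (adjusted p = 1.13e-08) in CAR-like cells and by -3.96 ± 0.43 (adjusted p = 3.09e-07) in tendon-like cells. Ndufa4l2 differed by -4.08 ± 0.55 (adjusted p = 4.18e-06), -5.12 ± 0.56 (adjusted p = 1.18e-07) and -4.59 ± 0.61 (adjusted p = 5.41e-06). All 3 libraries had the same direction for both genes in each comparison. Without replicate 1 the differences were -4.51, -3.61 and -3.08 for Cox4i2 and -3.27, -5.03 and -3.28 for Ndufa4l2, all past the threshold. Ndufa4 was lower in osteoblast-like cells by -0.94 ± 0.23 (adjusted p = 0.00267), and the other tests of Ndufa4 and those of Cox4i1 either did not pass or changed with scaling. The 3 comparisons share the chondrocyte-like sums. Whether these libraries came from separate animals is not stated, so the p-values cannot be read as a spread between animals. The fit takes out differences between whole libraries. The p-values therefore measure how the gates vary from library to library, pooled over all gates.

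Within the chondrocyte-like gate both genes were higher in superficial-like than in remaining cells. Superficial-like cells are those with at least 3 of 8 markers of the joint surface (Prg4, Cilp, Clu and others), and they numbered 334, 2043 and 3631. Cells that met no subset's list, called remaining, numbered 41, 572 and 941, and 85, 2391 and 2982 cells that met more than 1 list were left out of the comparison. Ndufa4l2 was at 950, 649 and 727 CPM in superficial-like cells and at 111, 72.9 and 71.5 CPM in remaining cells. Cox4i2 was at 135, 185 and 225 CPM against 29.8, 43.2 and 41.6 CPM. Neither gene had overlapping values between the 2 classes. The cells that met more than 1 list had more Cox4i2 than superficial-like cells in every library, at 305, 224 and 291 CPM, and less Ndufa4l2, at 699, 507 and 660 CPM. Ndufa4l2 made up 90.6%, 80.6% and 83.7% of its pair in superficial-like cells, and Cox4i2 21.8%, 27.6% and 31.5% of its pair.

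This comparison was added after these levels had been seen. The log2 fold change was 3.66 ± 0.49 (adjusted p = 4.39e-06) for Ndufa4l2 and 2.50 ± 0.30 (adjusted p = 1.05e-06) for Cox4i2. 4 of 90 members tested were called higher and 0 lower at 13 with an unadjusted p under 0.05, where 8.21% of all 13284 genes tested were called higher and 4.74% lower. The others were Ndufv3 of complex I (0.82 ± 0.24, adjusted p = 0.0208) and Atp5j, coupling factor 6 of ATP synthase (0.87 ± 0.26, adjusted p = 0.0253). Atp5j lost its call without any 1 of the 3 libraries, and Ndufv3 without replicate 2 or 3. With total UMIs as the only scaling the calls were 2 higher and 1 lower, where 4.89% and 8.37% of all genes were, and the median of all genes moved by -0.20. DESeq2 called 7 higher and 1 lower. Without replicate 1, whose remaining cells number 41, 7 members were called higher and 5 lower, where 18.6% and 18.1% of all genes were, and the log2 fold changes of Ndufa4l2 and Cox4i2 were 3.36 and 2.38. The median over the members was 0.29, beside 0.06 over all genes. The summed level of the mural marker list was 122, 81.1 and 91.0 CPM in superficial-like and 63.9, 71.1 and 60.7 CPM in remaining cells, with 6 to 8 and 2 to 7 of its 8 genes detected, and its part in the difference was not tested.

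Hypertrophic-like cells (Col10a1, Ihh, Mmp13 and others), which mark the last stage before cartilage is replaced by bone, were between these classes for Cox4i2 and near remaining cells for Ndufa4l2. They met no other subset's list, so the cells that met more than 1 list are not among them. Those left-out cells numbered 2391 and 2982 in replicates 2 and 3. They had Ndufa4l2 at 507 and 660 CPM and Cox4i2 at 224 and 291 CPM. Hypertrophic-like cells numbered 530 and 538 in replicates 2 and 3, and the 11 of replicate 1 were too few for a value. Cox4i2 was at 119 and 109 CPM and made up 16.7% and 15.7% of its pair. Ndufa4l2 was at 94.9 and 102 CPM and made up 23.0% and 26.9%, below the more abundant Ndufa4 at 318 and 278 CPM. Against remaining cells the log2 fold change of Cox4i2 was 1.49 ± 0.32 (adjusted p = 0.0396) and that of Ndufa4l2 0.33 ± 0.50 (adjusted p = 0.895), which became 0.52 (adjusted p = 0.0334) without replicate 1. Cycling cells (Mki67, Top2a and others; 28 and 34 cells) had Cox4i2 at 68.7 and 22.7 CPM and Ndufa4l2 at 54.0 and 32.5 CPM, and both tests missed the threshold (adjusted p = 0.925 and 0.241).

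**Figure D3:**
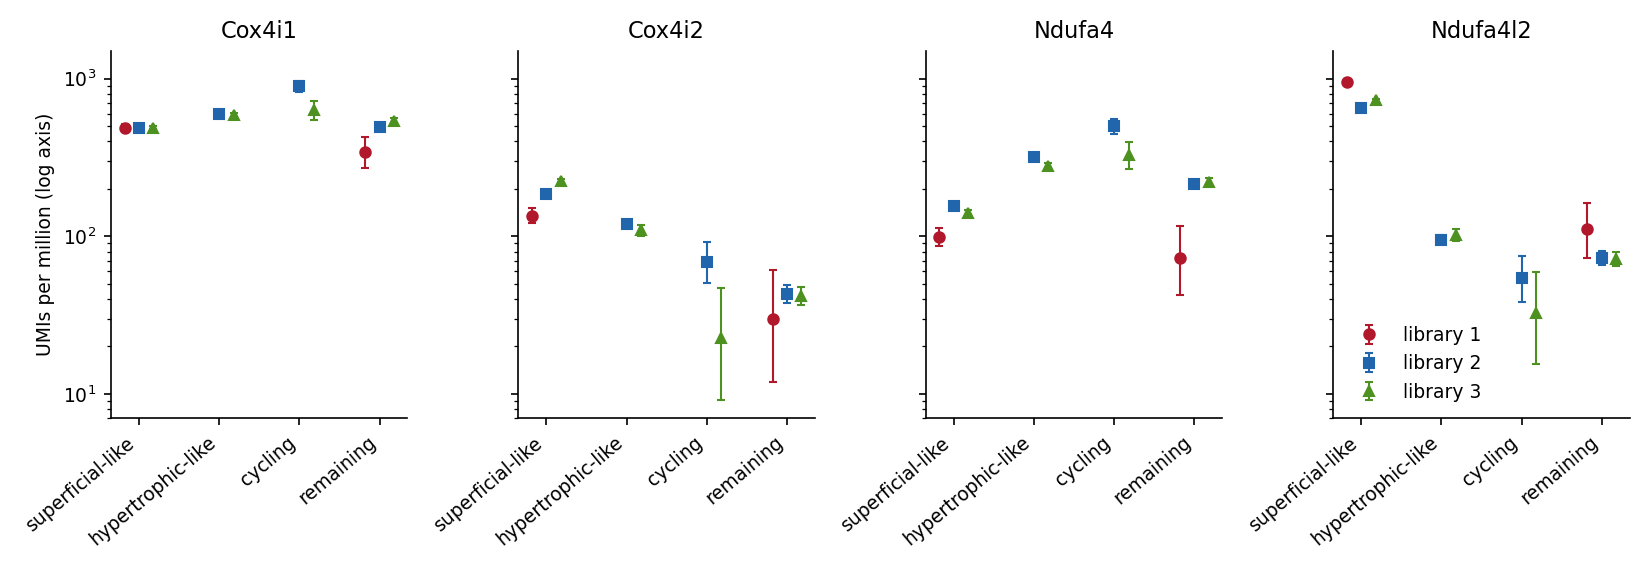
Levels of Cox4i1, Cox4i2, Ndufa4 and Ndufa4l2 (UMIs per 1000000, log axis) in 4 classes of chondrocyte-like cells by library, with exact Poisson 95% intervals. Ndufa4l2 lies at 649 to 950 in superficial-like cells and at 32.5 to 111 in the other 3 classes drawn, while Cox4i1 stays between 341 and 894.

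The share of cells with a UMI was higher in chondrocyte-like than in leukocyte-like and osteoblast-like cells for Cox4i2 and Ndufa4l2. For Ndufa4l2 it was also higher in superficial-like than in remaining cells. For Cox4i2 in replicate 3 osteoblast-like cells lay below leukocyte-like cells, unlike their CPM. Each cell was thinned to 2000 UMIs, which left out 11, 272 and 842 chondrocyte-like and 3, 1 and 3 leukocyte-like cells. Ndufa4l2 was then detected in 55.2%, 37.8% and 43.6% of chondrocyte-like cells and Cox4i2 in 18.9%, 23.9% and 27.3%. Leukocyte-like cells, taken as a low reference, gave 0%, 0.943% and 2.70% for Ndufa4l2 and 0.862%, 0% and 1.08% for Cox4i2, where 0 cells allow up to 2.59% and 2.83%. Before thinning the shares were 70.5%, 60.0% and 57.5% for Ndufa4l2 and 34.6%, 46.4% and 43.0% for Cox4i2 in chondrocyte-like cells, at median depths of 6273, 10519.5 and 6152.5 UMIs. They were 0%, 8.41% and 11.7%, and 4.2%, 2.80% and 3.72%, in leukocyte-like cells at 17929, 19530 and 11063 UMIs. In thinned superficial-like cells Ndufa4l2 was detected in 64.1%, 45.8% and 49.9%, and in remaining cells in 12.8%, 10.5% and 9.88%. Thinned osteoblast-like cells gave 3.13%, 6.45% and 16.7% for Ndufa4l2 and 3.13%, 2.42% and 0% for Cox4i2 (0 of 120 cells, which allows up to 2.50%), so Cox4i2 was found in few cells there. Its level in osteoblast-like cells rests on 1, 6 and 6 UMIs (5.53, 7.54 and 10.3 CPM). Leukocyte-like cells had 2.30, 1.44 and 4.27 CPM.

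Both genes were detected in the same cell in 12.3%, 16.0% and 17.6% of thinned superficial-like cells. In hypertrophic-like cells of replicates 2 and 3 this share was 2.55% and 3.08%. Among thinned superficial-like cells with an Ndufa4l2 UMI, 19.1%, 35.0% and 35.3% also had a Cox4i2 UMI. Among those without one, 14.5%, 13.5% and 19.2% did. The share with Cox4i2 was higher in cells with Ndufa4l2 in all 3 libraries, by the least in replicate 1. In hypertrophic-like cells the shares with Cox4i2 were 17.1% and 22.1% in cells with Ndufa4l2, and 17.1% and 13.1% in cells without.

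Other alternative forms of complex IV followed other gates. Cox6b2, known from testis, made up 29.5%, 22.4% and 22.0% of its pair with Cox6b1 in erythroid-like cells, at 243, 197 and 156 CPM. It was at 46.0, 27.3 and 24.7 CPM in leukocyte-like cells and at 1.19, 4.52 and 3.27 CPM in chondrocyte-like cells. CAR-like cells had 17.1, 17.0 and 25.2 CPM and passed the test against chondrocyte-like cells (1.78 ± 0.40, adjusted p = 0.000942). The summed level of the erythroid marker list was 61.2, 7.29 and 19.6 CPM in these CAR-like cells and 8.65, 8.39 and 18.2 CPM in chondrocyte-like cells, with 7, 2 and 4 of 7 genes detected in the former and 6, 7 and 7 in the latter, and its part was not tested. Cox6a2, the heart and muscle form of subunit 6a, was at 2.30, 18.2 and 12.3 CPM in leukocyte-like cells. It was at 10.1 CPM in plasma-cell-like cells of replicate 1 and had 0 UMIs in all CAR-like and erythroid-like cells. Cox8b made up at most 5.0% of its pair with Cox8a in any gate.

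The plasma-cell-like cells of replicate 1 (156 cells) had Cox4i2 without Ndufa4l2. They held 96 Cox4i2 UMIs (37.2 CPM) and 10 Ndufa4l2 UMIs (3.88 CPM), whereas the chondrocyte-like cells of the same library held 546 and 2750. Cox4i2 was 7.95% of its pair there (6.48% to 9.62%). The other libraries had 1 and 0 such cells.

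The 3 genes for the ring subunit of ATP synthase encode the same mature protein with different import sequences, and their shares hardly differed between the libraries of chondrocyte-like cells. Atp5g1 made up 33.5%, 34.3% and 34.6% of their summed UMIs in chondrocyte-like cells, Atp5g2 49.0%, 48.2% and 47.8%, and Atp5g3 17.5%, 17.5% and 17.6%. Atp5g3 was higher in CAR-like cells, at 27.0%, 33.2% and 25.5%. In erythroid-like cells Atp5g1 led with 48.9%, 49.4% and 49.5%, and Atp5g2 had 30.9%, 28.5% and 26.4%.

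The whole set took its largest shares of UMIs in leukocyte-like and erythroid-like cells. It was 1.06%, 1.16% and 1.07% of UMIs in chondrocyte-like cells (1.09% ± 0.0541). Osteoblast-like cells had 0.801%, 0.969% and 0.947%, below chondrocyte-like cells in every library. CAR-like cells had 0.902%, 1.29% and 1.18%, and tendon-like cells 0.871%, 1.47% and 1.33%, so both lay on either side of the chondrocyte-like values. Leukocyte-like cells had 2.17%, 2.25% and 2.16%, and erythroid-like cells 3.05%, 3.01% and 2.72%. In replicate 1 mural-like cells had 1.63%, fibroblast-like cells 1.04% and plasma-cell-like cells 0.919%. In the leukocyte-like and erythroid-like gates ribosomal protein genes were also high, at 21.1% to 21.4% and 25.1% to 26.7% of UMIs against 8.25%, 12.1% and 10.8% in chondrocyte-like cells, and their part was not tested. The 13 mitochondrially encoded genes took 2.04%, 3.66% and 3.39% in chondrocyte-like cells and 2.06% to 2.25% in leukocyte-like cells. Among cells of 3000 to 12000 UMIs the mean share was 1.67% in leukocyte-like, 2.05% in erythroid-like and 1.06% in chondrocyte-like cells.

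**Figure D4:**
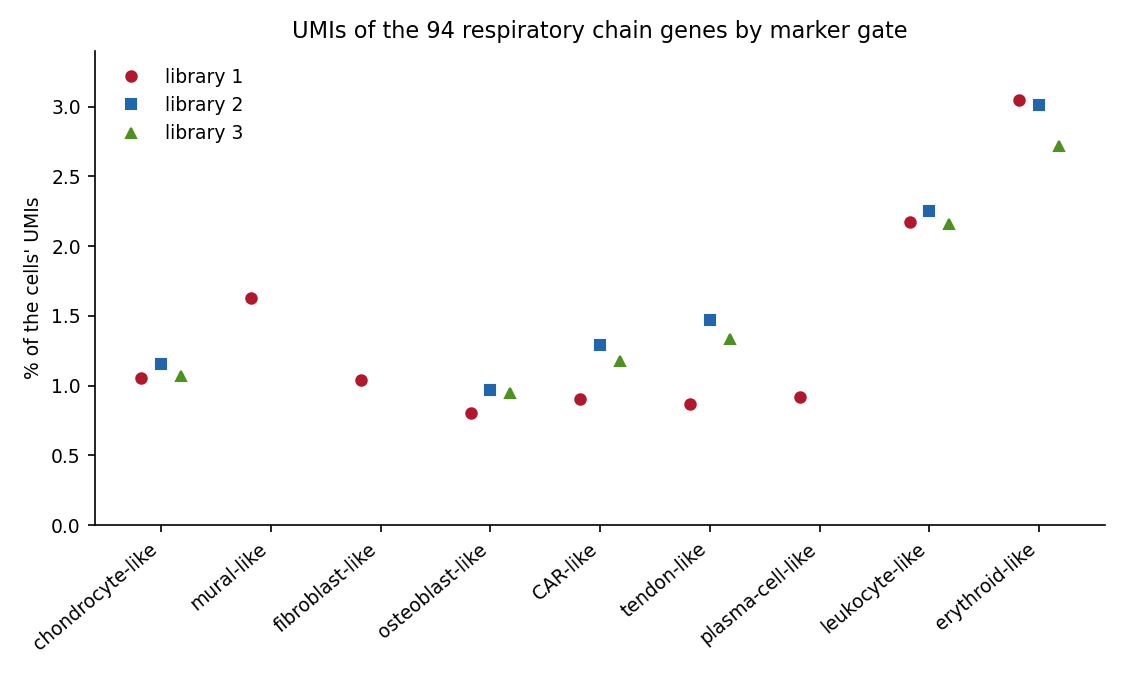
UMIs of the 94 genes as a percent of all UMIs of the same cells, by marker gate and library. Leukocyte-like (2.16% to 2.25%) and erythroid-like cells (2.72% to 3.05%) lie above all other gates, and gates with a single point had enough cells in replicate 1 only.

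Osteoblast-like cells, the bone-forming cells (Bglap, Dmp1, Sp7 and others), had more of these genes lower than higher when compared with chondrocyte-like cells. Of 88 members tested 3 were higher and 32 lower. Of all 12158 genes tested 13.0% were higher and 24.0% lower, and the median was -0.42 over the members and -0.35 over all genes. 8 of 15 complex IV genes, 8 of 17 ATP synthase genes, 3 of 8 complex III genes, 11 of 37 complex I subunits, 1 of 7 assembly factors and 1 of 4 complex II genes were lower. Besides Cox4i2 and Ndufa4l2, the named ones were Ndufaf4, a complex I assembly factor (-1.73 ± 0.41, adjusted p = 0.00184), Ndufb5 of complex I (-1.17 ± 0.28, adjusted p = 0.00188) and Uqcrc2, a core protein of complex III (-1.15 ± 0.32, adjusted p = 0.0065). Ndufaf4 was at 16.6, 12.6 and 6.84 CPM against 31.9, 36.2 and 33.7 CPM, with no overlap. Ndufv3 was higher (0.79 ± 0.24, adjusted p = 0.0122), at 111, 89.3 and 109 CPM against 66.5, 51.9 and 46.4 CPM. Sdhd was lower (-0.89, adjusted p = 0.0229), and Sdha, Sdhb and Sdhc did not pass (adjusted p = 0.0652, 0.998 and 0.413). With total UMIs as the only scaling 5 were higher and 21 lower, where 14.6% and 20.3% of all genes were, and with RLE size factors 9 were higher and 16 lower. Without replicate 2 or 3 the members called numbered 5 and 10, all lower, and without replicate 1 14 were higher and 31 lower, where 18.2% and 31.7% of all genes were.

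In CAR-like cells the direction of the member counts depended on scaling, while the members' median lay below that of all genes with each scaling given here. TMM scaling aims to make the bulk of genes equal between sums, but it left the median of all genes at -0.13 here. With it 2 of 88 members were higher and 31 lower than in chondrocyte-like cells, where 18.5% of all genes were higher and 22.9% lower. With total UMIs as the only scaling 12 were higher and 2 lower, where 32.0% of all genes were higher and 12.3% lower. Total UMIs moved the median of all genes by 0.52. The median went from -0.13 to 0.39 over all genes and from -0.38 to 0.14 over the members. With RLE size factors 4 were higher and 15 lower, at medians of -0.20 over the members and 0.06 over all genes. Cox4i2 and Ndufa4l2 were lower under both scalings. The next named genes were Cox7a2l, which is known to join complexes III and IV (-1.07 ± 0.21, adjusted p = 0.000248), Ndufaf8 (-1.06 ± 0.29, adjusted p = 0.00531) and Cox7c (-1.04 ± 0.23, adjusted p = 0.00071), and all 3 kept their direction and lost their call with total UMIs only. Ndufa3 of complex I was higher (0.67 ± 0.25, adjusted p = 0.0381), a call lost without replicate 2 or 3. Cox4i1 passed narrowly (-0.52 ± 0.20, adjusted p = 0.0379) and turned to 0.01 with total UMIs only. Ndufa4 was at 233, 403 and 367 CPM and higher in all 3 libraries (0.50 ± 0.21, adjusted p = 0.0607). Without replicate 2 or 3 the members called numbered 8 and 10, and without replicate 1 5 were higher and 25 lower, where 17.7% and 27.1% of all genes were.

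Tendon-like cells (Tnmd, Scx, Mkx and others) gave 0 members higher and 19 lower of 88, with 35 at an unadjusted p under 0.05, where 8.99% of all genes were higher and 16.5% lower. DESeq2 gave 4 higher and 8 lower. With total UMIs only the split was 8 higher and 2 lower, where 18.0% and 6.88% of all genes were, and the median of all genes moved by 0.57. The median went from -0.31 to 0.26 over all genes and from -0.42 to 0.17 over the members. With RLE size factors it was 2 higher and 6 lower. Cox4i2 and Ndufa4l2 were lower under both scalings. Ndufaf2 (-1.19 ± 0.32, adjusted p = 0.00752), Ndufb2 (-0.97 ± 0.23, adjusted p = 0.00288) and Ndufc2 (-0.95 ± 0.26, adjusted p = 0.00943) were lower with TMM scaling and not called with total UMIs only. Without replicate 2 or 3 the members called numbered 2 and 5, and without replicate 1 5 were higher and 12 lower, where 8.70% and 18.7% of all genes were.

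Fibroblast-like cells rest on 27 cells of replicate 1. With 1 sum this gate has no spread between libraries of its own, and the fit took the spread from the other gates. 5 of 88 members were lower and 0 higher, with 23 at an unadjusted p under 0.05, where 4.08% of all genes were lower and 3.31% higher, and DESeq2 gave 1 higher and 0 lower. Cox4i2, 1 of the 5, was at 43.6 CPM against 163 CPM in the chondrocyte-like cells of that library (-2.40). Ndufa4l2, which was not called, was at 212 against 820 CPM (-1.93). The others of the 5 were Ndufaf2 (-2.16), Atp5md (-2.07), Atp5mpl (-1.99) and Atp5g2 (-1.29), the last 3 of ATP synthase. Without replicate 2 or 3 the count was 0, with 7 and 12 at an unadjusted p under 0.05.

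Hypertrophic-like cells had 1 of 90 members called higher than in remaining chondrocyte-like cells, Cox4i2, and 0 lower, with 29 at an unadjusted p under 0.05. Of 13284 genes 0.113% were higher and 0.105% lower. DESeq2 called 0 members, with 29 at an unadjusted p under 0.05. The log2 fold change was positive for 88 of the 90, and the share of all genes with a positive one is not given here. The median was 0.51 beside -0.02 over all genes. Without replicate 1, which holds no hypertrophic-like sum, 36 members were higher and 0 lower, where 5.60% and 5.09% of all genes were. Without replicate 2 or 3 the count was 0, with 1 and 4 at an unadjusted p under 0.05. The median depth was 18276.5 and 10014.5 UMIs in hypertrophic-like cells and 5527 and 5177 UMIs in remaining cells of replicates 2 and 3, and in cells of 3000 to 12000 UMIs 0 members were called, with 2 at an unadjusted p under 0.05.

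Cycling cells had 15 of 90 members higher and 0 lower than remaining cells, with 37 at an unadjusted p under 0.05, where 7.36% of all genes were higher and 6.26% lower. DESeq2 called 39 higher and 0 lower, and the share of all genes that it called is not given here. The named genes were Uqcrc1 (1.39 ± 0.28, adjusted p = 0.000762) and Uqcrfs1, the Rieske iron-sulfur protein (1.10 ± 0.31, adjusted p = 0.0163), of complex III, Atp5o of ATP synthase (1.26 ± 0.30, adjusted p = 0.00523), Sdhd (1.22 ± 0.28, adjusted p = 0.00339) and Ndufs6 of complex I (1.07 ± 0.32, adjusted p = 0.0229). Uqcrc1 was at 115 and 61.7 CPM in cycling cells of replicates 2 and 3 and at 38.3, 31.9 and 24.6 CPM in remaining cells. The set took 2.07% of UMIs in replicate 2 and 1.31% in replicate 3, against 1.05% and 1.02% in remaining cells. The median depth was 23986.5 and 8737.5 UMIs in cycling and 5527 and 5177 UMIs in remaining cells, and ribosomal protein genes took 20.3% and 14.8% of UMIs against 13.7% and 13.8%, and their part was not tested. Without replicate 2 no member was called, with 2 at an unadjusted p under 0.05, without replicate 3 the count was 3, and without replicate 1 it was 54, all higher, where 15.3% of all genes were higher and 13.7% lower. Cox6b2 was among the 15 (3.03 ± 0.57), with 73.0 CPM in replicate 2 and 3.25 CPM in replicate 3, and the erythroid marker list was at 153 and 39.0 CPM in the same cells, with 5 and 6 of 7 genes detected. Its part was not tested.

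**Figure D5:**
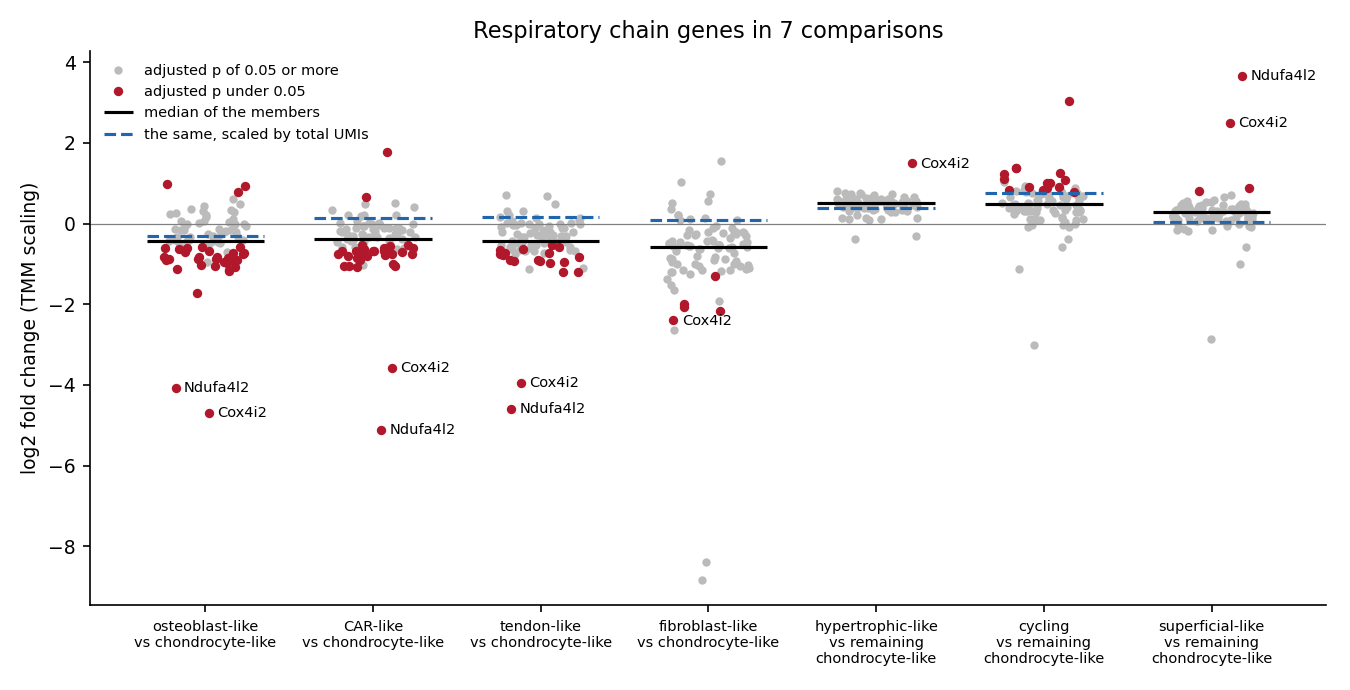
Log2 fold change (TMM scaling) of each tested member in 7 comparisons, with called members in red, the members' median in black and, dashed, the median with total UMIs as the only scaling. Cox4i2 and Ndufa4l2 lie apart from the other members in the first 3 comparisons and in the last, and the dashed medians of the CAR-like, tendon-like and fibroblast-like comparisons lie above 0 while the black ones lie below. The median of all genes, which is not drawn, changed sign in the same comparisons.

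The glycolysis list was lower in osteoblast-like, CAR-like and tendon-like cells than in chondrocyte-like cells, but not in every gate. It took 0.504%, 0.436% and 0.430% of UMIs in leukocyte-like cells, above 0.326%, 0.256% and 0.254% in chondrocyte-like cells. With TMM scaling 12 of 13 genes were lower in osteoblast-like cells, 11 in CAR-like cells and 12 in tendon-like cells, with medians of -1.36, -1.46 and -1.37. With total UMIs only 12, 9 and 6 were lower, and none higher under either scaling. Of 11 HIF target genes tested 3, 4 and 2 were higher and 4, 6 and 7 lower. The higher ones were Adm and Mxi1 in all 3 gates, Ddit4 in osteoblast-like and CAR-like cells, and Vegfa in CAR-like cells. Bnip3, a mitophagy receptor, was lower by -2.70, -1.92 and -2.07 and Higd1a, a mitochondrial inner membrane protein, by -2.18, -2.24 and -2.48. Both were higher in superficial-like than in remaining chondrocyte-like cells, by 1.98 ± 0.23 (adjusted p = 6.14e-07) and 1.52 ± 0.26 (adjusted p = 0.00018). In that comparison 5 of 11 HIF targets and 4 of 13 glycolysis genes were higher, and with total UMIs only 3 HIF targets were higher, no glycolysis gene was higher and 1 was lower.

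The remaining lists changed with scaling. Of the 13 mitochondrially encoded genes 2 were higher and 1 lower in osteoblast-like cells, 9 were lower in CAR-like cells and 3 in tendon-like cells with TMM scaling. With total UMIs only 5 were higher and 1 lower, 3 lower, and 3 higher. mt-Co1, the catalytic subunit of complex IV, was at 3336, 3162 and 3393 CPM in CAR-like and at 4612, 7082 and 6958 CPM in chondrocyte-like cells. Of 12 genes of the tricarboxylic acid cycle 4, 2 and 1 were lower with TMM scaling, among them Idh3a in osteoblast-like cells (-1.92 ± 0.41, adjusted p = 0.000732), and 2, 0 and 0 were lower and 1, 4 and 1 higher with total UMIs only. Of 17 other assembly factors tested 3, 4 and 3 were lower with TMM scaling, and 2, 2 and 0 lower and 1, 2 and 1 higher with total UMIs only. Cox17, a copper chaperone for complex IV, was lower in osteoblast-like cells (-1.03 ± 0.26, adjusted p = 0.00322). Of 7 regulators of mitochondrial biogenesis tested 1 passed, Esrra in osteoblast-like cells (1.41 ± 0.53, adjusted p = 0.04), at 16.6, 6.29 and 13.7 CPM against 5.37, 3.23 and 3.4 CPM. With total UMIs only 1 was higher in each of the 3 gates, and with RLE size factors 2 were higher in osteoblast-like cells.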

How the data were processed

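The authors aligned the reads to mm10 (GRCm38) and counted UMIs per gene and barcode with Cell Ranger (version 7.1.0). The deposited values are raw counts, with no normalization, for 20307 barcodes, fewer than the cells that the study states. The annotation release and the handling of strand, introns and reads shared by near-identical copies are not given in the sources used here. Of the 94 genes, 11 overlap a gene on the same strand and 34 one on the other.

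Barcodes were dropped under 200 genes or over 20% mitochondrial UMIs. The highest Scrublet scores (scanpy version 1.11.5) were removed as doublets, 0.8% per 1000 cells of a library, since its automatic threshold marked 12, 3 and 0 cells. A cell entered the gate of which it had the most markers with a UMI, if at least 3 and at least 2 more than of any other gate. A chondrocyte subset needed at least 3 of 8 markers and no other subset. The erythroid list kept 7 of its 8 genes. Gates hold no member.

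Counts were summed per gate and library, where there were at least 20 cells, and tested with edgeR (version 4.0.16): TMM scaling, filterByExpr, the library as a block and an adjusted p under 0.05. The libraries pair the sums, since all gates compared come from the same library. DESeq2 (version 1.42.0) was an alternative. Some counts of members under another setting, and all counts at an unadjusted p under 0.05, have no share of all genes beside them. For these that share is not given here, and the count cannot be set against all genes. The fits were tested on simulated data. Members named per comparison were the 5 with the largest change in each direction among those called and moved the same way in every library, and otherwise the 10 most abundant and the paralog pairs and complex II. Cox6b2 in cycling cells and the genes of other lists were chosen after their values were seen. The members and lists were chosen with earlier results of these data known. Values of 1 marker gate are not reported here.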

Additional observations from a re-analysis of the deposited data

How the results depend on the processing

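Cox4i2 and Ndufa4l2 kept their direction and their call under all 14 alternatives in the osteoblast-like, CAR-like and tendon-like comparisons and all 13 in the superficial-like one, with log2 fold changes of -5.68 to -3.05 in the first 3 comparisons. Counts of members called were less stable. The osteoblast-like count of 35 was 21 with no low-count filter and 5 to 45 leaving out a replicate. The CAR-like count of 33 was 19 with RLE size factors, 14 with total UMIs only, 18 with no low-count filter, 13 in cells of 3000 to 12000 UMIs and 8 to 30 leaving out a replicate. The tendon-like count of 19 was 8, 10, 11 and 5 under those 4 settings, 12 with DESeq2, 11 against superficial-like chondrocytes and 2 to 17 leaving out a replicate. The fibroblast-like count of 5 was 1, 1, 3 and 1 under the same 4, 1 with DESeq2, 2 against superficial-like chondrocytes and 0 leaving out replicate 2 or 3. The hypertrophic-like count of 1 was 0 with RLE size factors, total UMIs only, DESeq2, no replicate block, at most 10% mitochondrial UMIs, at least 4 markers or the depth window, and 0 to 36 leaving out a replicate. The cycling count of 15 was 44 with total UMIs only, 8 with no low-count filter, 39 with DESeq2 and 0 to 54 leaving out a replicate. The superficial-like count of 4 was 2 with no low-count filter, 8 with DESeq2, 7 in the depth window and 2 to 12 leaving out a replicate. Without the replicate block, which treats the paired sums as unpaired, the other counts were 26, 23, 13, 5, 13 and 3. The Cox4i2 share of its pair in chondrocyte-like cells rose to 31.8% in the depth window.

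DESeq2 split the osteoblast-like calls into 13 higher and 18 lower and the CAR-like into 4 and 20. The changes that reversed turned to values from -0.24 to 0.49. Cox4i1 turned to 0.02 and 0.01 in osteoblast-like cells (RLE size factors, DESeq2), to 0.01 in CAR-like cells (total UMIs only), to 0.17, 0.49, 0.16 and 0.13 in tendon-like cells (RLE size factors, total UMIs only, DESeq2, without replicate 1; -0.13 to 0.13 leaving out a replicate) and to 0.22 in fibroblast-like cells (total UMIs only). Ndufa4 turned to 0.04 in tendon-like cells (total UMIs only) and to 0.03, 0.16 and 0.29 in superficial-like cells (without replicate 2, without replicate 3, depth window; -0.44 to 0.16 leaving out a replicate). Ndufa4l2 turned to -0.24 and -0.10 in hypertrophic-like cells (DESeq2, without replicate 2; -0.10 to 0.52 leaving out a replicate). Cox4i2 turned to 0.00, 0.23, 0.02, 0.19 and 0.40 in cycling cells (RLE size factors, total UMIs only, no replicate block, without replicate 1, without replicate 3; -1.21 to 0.40 leaving out a replicate). The cause was not tested. Of the other values for single genes 534 kept direction and call, 102 lost the call and 15 gained it. The fibroblast-like comparison without replicate 1 or with at least 4 markers, and the cycling one in the depth window, left a class with under 20 cells per sum and gave no value. The gate levels of low genes are limited by the UMIs behind them, from 122685 to 65889019 per sum. The superficial-like comparison and the superficial-like reference were chosen after seeing the data.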

Other observations

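Cells that no gate took (662, 397 and 661 in replicates 1, 2 and 3) belong to no comparison. The 94 genes took 1.38%, 1.76% and 1.57% of their UMIs. Cox4i2 made up 9.95%, 9.35% and 22.0% of its pair in them, and Ndufa4l2 53.5%, 35.1% and 67.6%. Their median depth was 4015.5, 3145 and 2207 UMIs.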
